A study of Mus musculus with 4 samples.

Results

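The cells described here are Mpo-positive monocytic progenitors of mouse bone marrow, 651 of the 8969 cells sequenced in 4 single-cell RNA libraries. They were chosen by raw counts of unique molecular identifiers (UMIs, each marking 1 captured RNA molecule) in the 2 libraries of the Lin-/CD11b+ sort, which pooled lineage-negative progenitors with CD11b+ myeloid cells. A cell was a member with at least 10 UMIs of Mpo, at least 2 of Ly86, at most 1 of Cebpe, and S100a8 plus S100a9 under 5% of its UMIs. The control library held 301 members of 1924 cells (15.6%, 95% binomial interval 14.0 to 17.3), and the Tet2 KO library 350 of 3068 (11.4%, 10.3 to 12.6). The study's own list of cell numbers gives those of the control Lin-/CD11b+ and Tet2 KO GMP libraries the other way round. The deposited cell table was followed here, and by it the median cell held 5 UMIs of Igkc in the control Lin-/CD11b+ library and 0 in the Tet2 KO GMP library, as against 4 and 0 in the other libraries of these sorts.

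All mice carried floxed Tet2 alleles (Tet2 fl/fl) and all received pI:pC, a synthetic double-stranded RNA that induces interferon, in 4 doses of 12.5 ug per g. The control mouse was a littermate without Cre, and the Tet2 KO mouse carried Mx1-Cre, which interferon switches on across haematopoietic cells and in other tissues, so the deletion was not limited to myeloid progenitors. The study asked how loss of Tet2, an enzyme that oxidises methylated cytosine, alters the granulocyte and monocyte progenitors of the marrow. With 1 library per genotype and sort there is no replicate and no test between genotypes. Intervals are at 95% and measure the error of counting alone, and genotype, mouse and preparation cannot be told apart.

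Granulocyte-monocyte progenitors give rise to neutrophils and to monocytes. On both paths they fill primary granules with myeloperoxidase (Mpo) and the serine proteases Elane, Prtn3 and Ctsg, and these transcripts are lost again as the cells mature. The transcription factor Irf8 favours the monocyte path and restrains the neutrophil path, on which Cebpe and Gfi1 drive later granule genes. Ly86 encodes MD-1, a partner of the Toll-like receptor homologue CD180, and F13a1 encodes the coagulation factor XIII A chain made by classical monocytes.

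The limits of the rule passed through a continuum. The Mpo limit kept 711 control and 1120 Tet2 KO cells, the Ly86 limit left 323 and 375 of these, the Cebpe limit left the members, and the S100a8 and S100a9 limit removed no further cell in either library. Just inside the Mpo limit, at 10 or 11 UMIs, lay 20 control and 28 Tet2 KO members, and just outside, at 8 or 9, lay 22 and 26 cells that met the other limits. With exactly 2 UMIs of Ly86 there were 48 and 92 members, against 55 and 118 cells with 1 UMI outside. With 1 UMI of Cebpe there were 46 and 59 members, against 14 and 14 cells with 2 UMIs outside. Mpo ran from 10 to 164 UMIs per control member with a median of 37, and from 10 to 115 per Tet2 KO member with a median of 29. The Ly86 median was 5 in control members and 4 in Tet2 KO members. These values chose the members and are given as a description.

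Members were sequenced to near equal depth in the 2 libraries, with medians of 14390 and 14956 UMIs and 2939 and 3066.5 genes per cell, and their summed UMIs came to 4597559 in control and 5415663 in Tet2 KO. The rule counts raw UMIs, so deeper cells passed it more easily, and after thinning every cell to 5000 UMIs it kept 5.25% and 2.57% of cells. Any pair of libraries shared 4 to 8 cell barcodes, 7 of them between the 2 Lin-/CD11b+ libraries. Mitochondrial transcripts took a median of 2.47% and 2.43% of UMIs per member. Free RNA gave little Mpo. In cells with over 20% immunoglobulin UMIs, which should lack Mpo (165 control and 179 Tet2 KO cells), the median of Mpo was 0 and its 90th percentile 1 and 2 UMIs. The 95th percentile in these cells was 2 UMIs for Mpo and 4 for Ly86 in both libraries. Whether that Ly86 was free RNA or the cells' own was not tested.

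**Figure D1:**
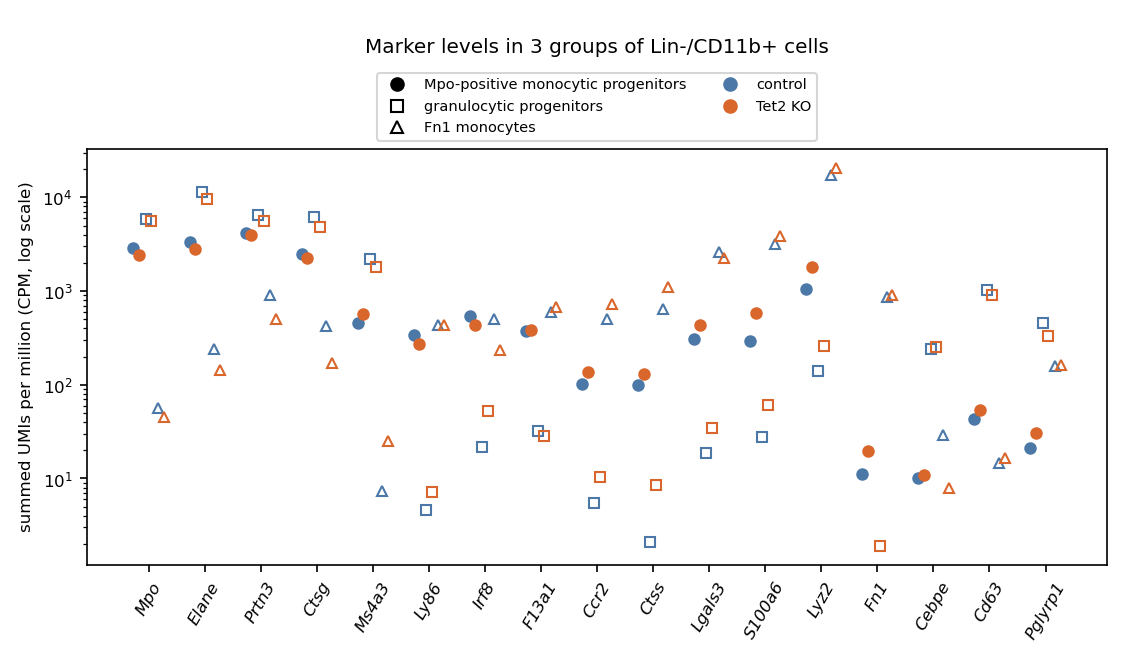
Level in CPM (counts per 1000000 UMIs, log axis) of marker genes in the members, the granulocytic progenitors and the Fn1 monocytes of the control and Tet2 KO Lin-/CD11b+ libraries, as symbols coloured by genotype. The granule genes Mpo, Elane, Prtn3, Ctsg and Ms4a3 of the members lie between those of the other 2 sets, and Fn1 of the control granulocytic progenitors is at 0 and not drawn.

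The 4 markers given for these cells were all present at high level. In counts per 1000000 summed member UMIs (CPM), Mpo stood at 2853 in control and 2411 in Tet2 KO members and Ly86 at 338 and 275. Both are fixed by the rule. Irf8 stood at 547 CPM in control and 434 in Tet2 KO members and F13a1 at 377 and 380. Of the 15 genes with the highest CPM in both libraries, 14 encode ribosomal proteins and the other is Ptma, and ribosomal protein transcripts summed to 392906 and 374398 CPM. Other primary granule transcripts were also abundant, with Prtn3 at 4194 and 3926 CPM and Elane at 3369 and 2836.

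Markers of some other cell types were low or held by a few cells, and those of others were not. Of 11 macrophage markers 6 were at 0 in both libraries (C1qa, C1qb, C1qc, Cd5l, Mertk and Timd4), and the list summed to 11.5 and 10.7 CPM. Of 16 mature monocyte markers 2 were at 0 in both, Cd300e and Treml4, which mark patrolling monocytes, while Cx3cr1 had 117 and 140 UMIs. Of 15 dendritic markers only 1 was at 0 in both, the dendritic cell factor Zbtb46, while Bst2 had 833 and 1094 UMIs and Tcf4 136 and 216. Of 12 erythroid and megakaryocytic markers 4 were at 0 in both libraries, and those summed to 6.74 and 12.6 CPM. Other lists were not low. The granulocytic list, with Elane as its highest gene, summed to 4002 and 4353 CPM. Stem and early progenitor markers summed to 422 and 624 CPM and dendritic markers to 278 and 529. Immunoglobulin was high too, with Igkc at 5732 CPM in control and 1403 in Tet2 KO members. The median member held 6 and 5 UMIs of Igkc, close to the medians of 5 and 4 over all cells of the same libraries, while 4 control and 2 Tet2 KO members with at least 100 immunoglobulin UMIs held 90.8% and 65.7% of the members' immunoglobulin UMIs. Members with many MHC class II transcripts (20 or more UMIs of Cd74, H2-Aa, H2-Ab1 and H2-Eb1) numbered 2 and 10. There were 3 and 2 members with at least 20 UMIs of basophil and mast cell transcripts, and 0 and 3 with at least 20 of late neutrophil transcripts. In all, 7 control and 14 Tet2 KO members met one of these limits, with medians of 25477 and 17618 UMIs per cell, above the medians of all members. These limits were chosen after the data were seen, no doublet caller was run, and whether these cells are doublets was not tested.

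Set beside granulocytic progenitors of the same libraries, the members had less of most primary granule transcripts and more of monocyte transcripts. The granulocytic progenitors, 152 control and 157 Tet2 KO cells, also had at least 10 UMIs of Mpo but at least 2 of Cebpe and at most 1 of Ly86. Of 9698 genes with at least 20 UMIs over both libraries' members, 340 (3.51%) were at least 1.5-fold higher in members in both libraries and 178 (1.84%) at least 1.5-fold lower, on the ratio of CPM + 10. Since counts of these same cells defined both sets, the ratios are a description. Ly86, Cebpe and Mpo follow from the limits themselves.

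Among 20 primary granule genes 14 were lower in members than in granulocytic progenitors and 2, Lyz2 and Ctsc, were higher. Elane stood at 3369 and 2836 CPM against 11495 and 9733 in the granulocytic progenitors. Ms4a3, a membrane protein of committed granulocyte and monocyte progenitors, stood at 456 and 576 CPM against 2180 and 1811. Cd63, a tetraspanin of granule membranes, differed most, at 43.5 and 54.5 CPM against 1036 and 903. Pglyrp1, a later granule protein, stood at 21.3 and 30.3 CPM against 461 and 334. Nkg7, Rgcc, Wfdc21 and Prss57 were also among the 12 genes furthest below the granulocytic progenitors. Ctsc, which activates the granule proteases, went the other way. Gfi1 stood at 2.83 and 2.03 CPM in members against 19.5 and 19.0.

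Of 46 monocyte effector and surface genes 30 were higher in members than in granulocytic progenitors and 2 lower. Ccr2, the chemokine receptor by which monocytes leave the marrow, stood at 103 and 137 CPM against 5.50 and 10.4. Ctss, a lysosomal protease, stood at 99.4 and 130 CPM against 2.12 and 8.54. Lgals3, the galectin of monocytes and macrophages, stood at 309 and 433 CPM against 18.6 and 34.6. Of 14 monocyte and dendritic fate regulators 4 were higher, namely Irf8, Klf4, Irf5 and Zeb2. Irf8 stood at 547 and 434 CPM against 21.6 and 53.1, and Klf4 at 54.8 and 75.3 against 4.23 and 6.64. Of 22 cytokine and growth factor receptors 10 were higher, among them Csf1r, the M-CSF receptor, at 54.4 and 53.0 CPM against 5.08 and 9.96. Flt3, Cx3cr1, Il6ra and Il6st were also among these 10, while Kit and Ifngr1 were lower. Of 8 Ifi200 genes, which encode nucleic acid sensors and related proteins, 5 were higher.

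Set beside Fn1 monocytes, the members still carried progenitor transcripts and lacked most of the mature programme. The Fn1 monocytes, 45 control and 153 Tet2 KO cells, had at least 5 UMIs of Fn1, at least 2 of Ly86, at most 2 of Mpo and at most 1 of Cebpe. Here 622 genes (6.41%) were higher in members in both libraries and 811 (8.36%) lower. Counts of these same cells defined both sets here too, so the ratios are a description, and Mpo and Fn1 follow from the limits themselves. Genes that vary with Mpo across cells, such as other granule genes, may follow its limits in part, which was not tested. The monocytes were shallower, with medians of 9027 and 9147 UMIs per cell, and the part of depth in these counts was not tested.

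Among the 20 primary granule genes 15 were higher in members than in Fn1 monocytes and 2 lower. Ctsg stood at 2463 and 2236 CPM against 421 and 169. Cd34, a surface protein of early progenitors, stood at 85.3 and 65.9 CPM against 9.73 and 5.26, and Cdk6, a kinase that starts the cell cycle, at 219 and 183 against 14.6 and 20.4. Mif, Srm, Igfbp4 and Cst7 were also among the 12 genes furthest above the monocytes. Of 44 S phase genes 10 were higher and none lower, among them Mcm2, Tyms and Hells.

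None of the 46 monocyte effector genes was past 1.5-fold above the Fn1 monocytes in both libraries and 37 were below them. Lyz2, the lysozyme of myeloid cells, stood at 1059 and 1809.9 CPM against 17322 and 20822. Ctss stood at 99.4 and 130 CPM against 637 and 1109. Of the 14 fate regulators 10 were lower, with Id2, Klf4 and Irf7 among them. Irf8 was not, at 547 and 434 CPM in members against 499 and 232 in monocytes. Of 23 genes of the type I interferon response 17 were lower than in the monocytes and 3 were higher than in the granulocytic progenitors. The members thus held Irf8 at or above the monocyte level while most monocyte effector genes lay below it.

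Gene levels differed among the members themselves beyond sampling of molecules. After thinning to 5000 UMIs, the median ratio of variance to mean over 1089 genes with a mean of at least 0.5 UMIs was 1.10 in both libraries, where 1 is the value of pure counting. Igkc, Igha and Jchain came first, for the few members described above. Lyz2 followed with ratios of 12.4 in control and 22.8 in Tet2 KO members and Elane with 13.04 and 12.2. Ly6c2, the surface antigen by which classical monocytes are sorted, had ratios of 6.61 and 5.49. S100a6 had ratios of 3.96 and 4.44, and Mpo 4.53 and 5.57. S100a8 had a ratio of 5.90 in control and 57.1 in Tet2 KO members. Actb, Tmsb4x, Tmsb10, Hist1h2ap, Malat1 and Crip1 made up the rest of the 15 most variable genes.

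**Figure D2:**
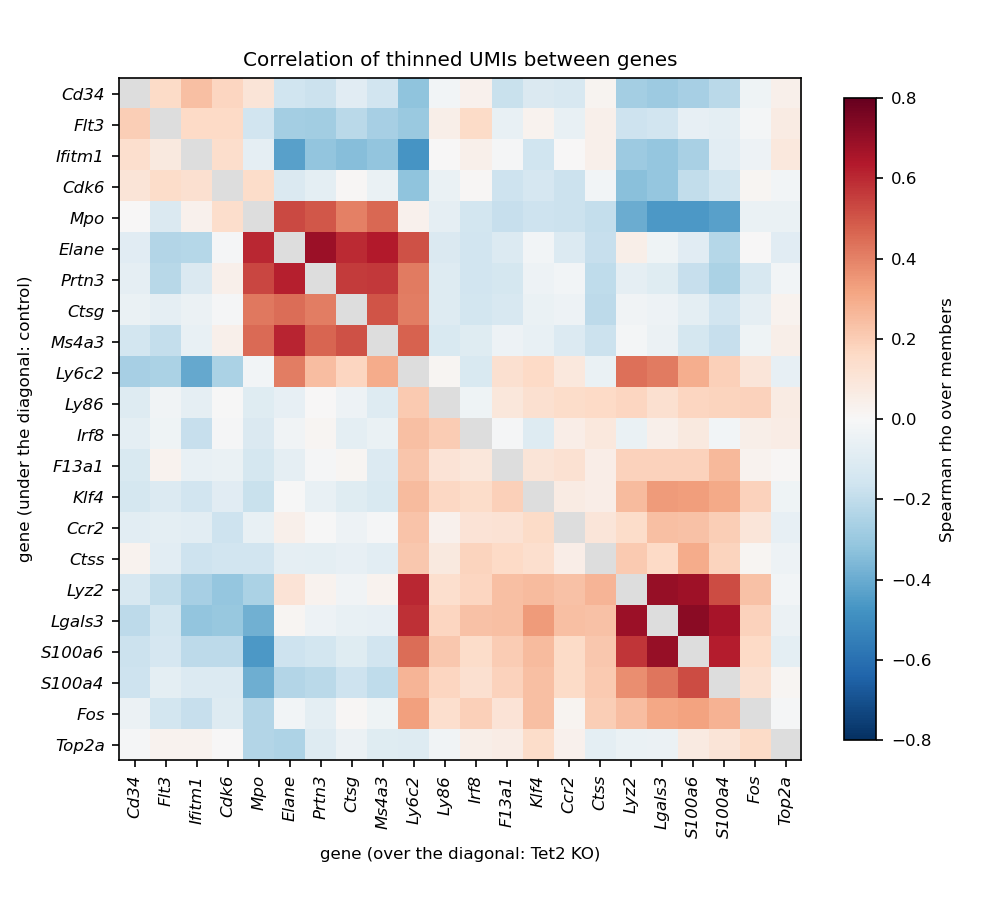
Spearman correlation (colour scale) between marker genes over members thinned to 5000 UMIs, with control under the diagonal and Tet2 KO over it. Granule genes form one block of positive values and Lgals3, S100a6, S100a4 and Lyz2 another, with negative values between Mpo and the second block.

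The variable genes moved in 2 blocks across members. In the first, Elane and Prtn3 had a Spearman correlation of 0.62 over control and 0.69 over Tet2 KO members, and Elane and Ms4a3 one of 0.61 and 0.64. In the second, Lgals3 and S100a6 reached 0.69 and 0.72, and Lyz2 and Lgals3 0.68 and 0.70. Between the blocks, Mpo and S100a6 stood at -0.46 in both libraries, but other pairs were near 0, with Elane and Lyz2 at 0.11 and 0.05 and Ctsg and Lgals3 at -0.06 and -0.04. Of 406 pairs of 29 marker genes 309 had the same sign in both libraries. Cells of 1 library share its preparation, Mpo and Ly86 are truncated by the rule, and no p-value belongs to these correlations.

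The promoters of the first block are shown because their transcripts move together across members and set the cells apart from monocytes. Each line gives the 250 bases before the annotated start in the RefSeq annotation of GRCm38.p6, the build that mm10 denotes. Mpo lies at chr11:87793534-87793783 on the plus strand, Elane at chr10:79886062-79886311 on the plus strand, Prtn3 at chr10:79879417-79879666 on the plus strand and Ctsg at chr14:56102575-56102824 on the minus strand. Capitals mark GAGGAA or its reverse complement, the core bound by the ETS factor PU.1 (Spi1).
Mpo: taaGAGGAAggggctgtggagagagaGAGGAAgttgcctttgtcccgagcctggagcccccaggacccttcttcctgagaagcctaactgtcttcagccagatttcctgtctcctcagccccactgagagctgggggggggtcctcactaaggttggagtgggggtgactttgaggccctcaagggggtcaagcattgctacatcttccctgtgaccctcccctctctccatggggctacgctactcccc
Elane: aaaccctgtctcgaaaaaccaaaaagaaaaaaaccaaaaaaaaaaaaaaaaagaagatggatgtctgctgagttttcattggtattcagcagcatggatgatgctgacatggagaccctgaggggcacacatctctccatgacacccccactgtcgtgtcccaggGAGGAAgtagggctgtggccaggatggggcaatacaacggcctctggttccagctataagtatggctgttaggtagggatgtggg
Prtn3: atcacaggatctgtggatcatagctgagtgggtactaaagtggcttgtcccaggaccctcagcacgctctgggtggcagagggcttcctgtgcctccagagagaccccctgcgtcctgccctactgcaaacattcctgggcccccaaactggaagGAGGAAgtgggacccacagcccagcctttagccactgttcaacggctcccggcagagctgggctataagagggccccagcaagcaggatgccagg
Ctsg: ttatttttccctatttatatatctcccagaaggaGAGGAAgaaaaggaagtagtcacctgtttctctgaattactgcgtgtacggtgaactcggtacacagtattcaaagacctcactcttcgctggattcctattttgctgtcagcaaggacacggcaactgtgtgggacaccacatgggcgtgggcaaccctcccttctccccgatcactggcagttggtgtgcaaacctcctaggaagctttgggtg
GAGGAA was found at 2 places upstream of Mpo, with first bases at -224 and -247 relative to the start. It was found at 1 place in each of the other 3, at -85 in Elane, -95 in Prtn3 and -216 in Ctsg. On either strand, 23.3% of 32851 promoters of the same length hold it. The C/EBP-like TTGCNNAA (9.56% of promoters) and the ETS-IRF composite, GGAA and GAAA with NN between them (2.30%), were not in these 4 windows, which says only that these letters are absent there. Upstream of Ms4a3, Lgals3, S100a6 and S100a4 none of these 3 motifs was found. These matches are letters in a sequence and not shown binding sites. Spi1 itself stood at 244 and 252 CPM in control and Tet2 KO members.

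**Figure D3:**
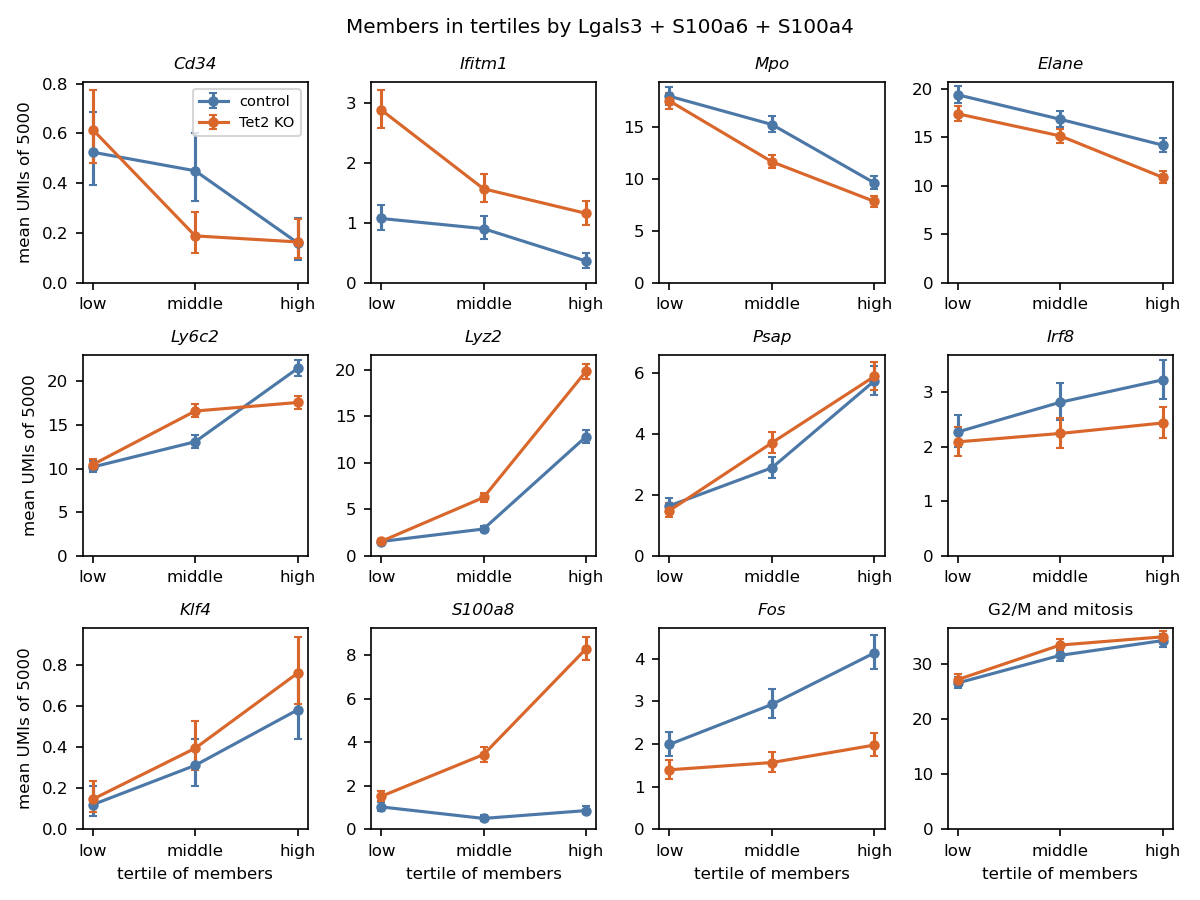
Mean UMIs per member thinned to 5000 UMIs, in tertiles of members ordered by the summed thinned counts of Lgals3, S100a6 and S100a4, with 95% Poisson intervals. Cd34, Mpo and Elane are lower and Lyz2, Klf4 and Ly6c2 higher in the high tertile of both genotypes.

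Ordered by the summed thinned counts of Lgals3, S100a6 and S100a4, members of both genotypes ran from progenitor to monocyte transcripts. The sum had a mean of 0 in the low tertile of control members (101 cells) and 10.3 in the high tertile (100 cells), and 0.282 and 15.2 in the low and high tertiles of Tet2 KO members (117 and 116 cells). The values that follow are mean UMIs per member of 5000. Mpo stood at 17.9 in the low and 9.60 in the high tertile of control members, and at 17.5 and 7.82 in Tet2 KO members. Cd34 stood at 0.525 and 0.160 in control and at 0.615 and 0.164 in Tet2 KO members. Kit, the receptor for stem cell factor, stood at 0.129 and 0.050 in control and at 0.154 and 0.0345 in Tet2 KO members. These 3 progenitor transcripts were thus lower in the high tertile of both.

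Monocyte transcripts went the other way. Lyz2 stood at 1.54 and 12.8 in the low and high tertiles of control members and at 1.56 and 19.8 in those of Tet2 KO members. Klf4, a factor needed for monocyte differentiation, stood at 0.119 and 0.580 in control and at 0.145 and 0.759 in Tet2 KO members. Ly6c2 stood at 10.2 and 21.5 in control and at 10.5 and 17.6 in Tet2 KO members. Irf8 stood at 2.27 (1.98 to 2.58) and 3.22 (2.88 to 3.59) in control and at 2.09 (1.83 to 2.36) and 2.43 (2.16 to 2.73) in Tet2 KO members, so its intervals overlapped in Tet2 KO members but not in control. Psap, a lysosomal protein, stood at 1.64 and 5.74 in control and at 1.49 and 5.89 in Tet2 KO members.

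Mif and Ncl were lower in the high tertile and the sum of 52 G2/M genes was higher. Mif stood at 7.60 and 3.74 UMIs of 5000 in the low and high tertiles of control members and at 8.18 and 4.66 in Tet2 KO members. Ncl, a nucleolar protein of ribosome production, stood at 5.56 and 2.69 in control and at 6.21 and 3.50 in Tet2 KO members. The G2/M list summed to 26.6 and 34.3 in control and to 27.2 and 35.0 in Tet2 KO members. Single genes did not all follow, with overlapping intervals for Mki67, at 0.426 and 0.470 in control and 0.325 and 0.543 in Tet2 KO members, and for Top2a, at 1.06 and 1.03 in Tet2 KO members. The S phase list summed to 18.1 and 19.9 and to 17.6 and 18.7. Ribosomal proteins summed to 2039 and 1848 in control and to 2001 and 1741 in Tet2 KO members. Since a cell's 5000 UMIs are shared among all genes, these levels are relative.

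More Tet2 KO members had a high sum of Lgals3, S100a6 and S100a4. A limit of 4 for the sum, set at the top of the middle tertile of control members, was passed by 92 of 301 control members (30.6%, 25.4 to 36.1) and 177 of 350 Tet2 KO members (50.6%, 45.2 to 55.9). The median of the sum was 1 in control and 5 in Tet2 KO members. Within 1 UMI of the limit lay 39 and 36 members. The shift restates the higher levels of these 3 genes in Tet2 KO members, with Lgals3 at 309 CPM in control and 433 in Tet2 KO, S100a6 at 297 and 579 and S100a4 at 123 and 259. Other transcripts that were higher along the order in control went both ways. Irf8, at 547 and 434 CPM, and F13a1, at 377 and 380, were not higher in Tet2 KO members as a whole. Lyz2, Klf4, Ccr2 and Ctss were higher in them. Without S100a4 in the sum the shares were 29.6% and 43.1%. In the GMP sort of the same genotypes, where the same rule kept 490 of 1258 control cells and 887 of 2719 Tet2 KO cells, the limit of 4 was passed by 72 (14.7%) and 221 (24.9%). The library names in the cell table carry the same code for both sorts of a genotype, so both sorts may come from the same mouse. The GMP sort is thus taken as a second measurement and no replicate. The limit was chosen after the data were seen.

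**Figure D4:**
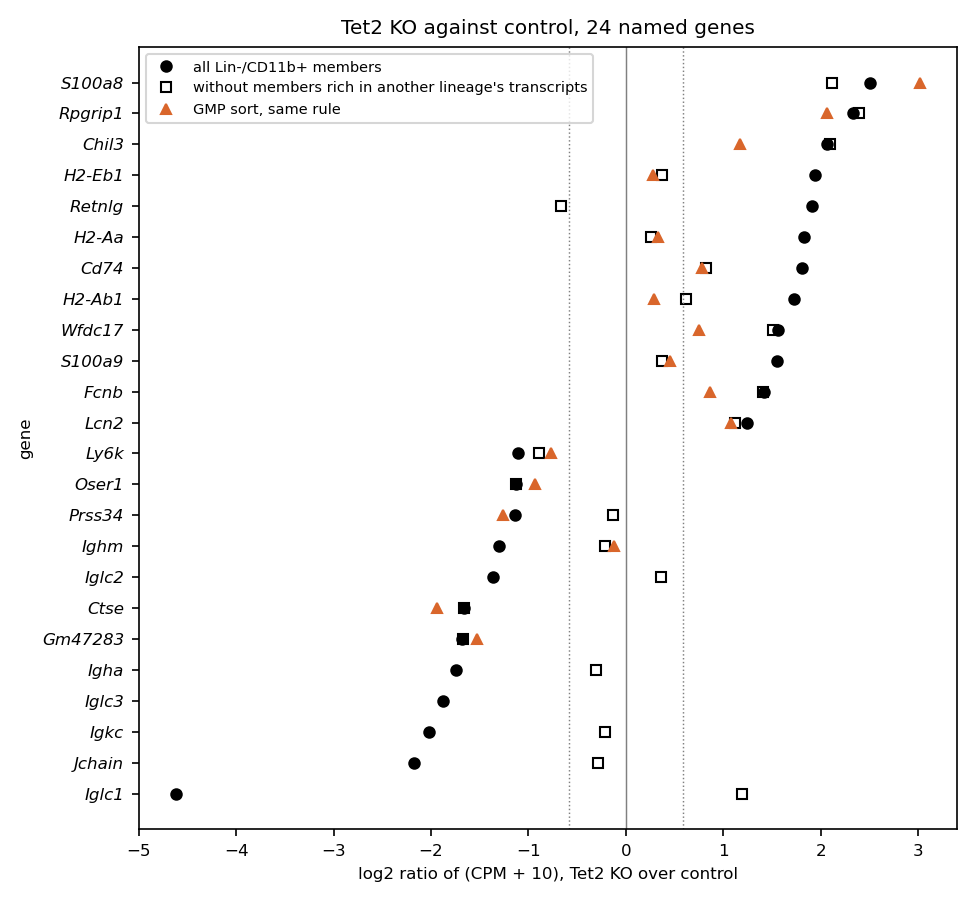
Log2 ratio of CPM + 10 of Tet2 KO over control (horizontal axis) for the 12 genes furthest above and the 12 furthest below control, in all members, without members rich in another lineage's transcripts, and in the GMP sort. Dotted lines mark 1.5-fold and a missing symbol means too few UMIs. S100a8, Rpgrip1 and Ctse lie past 1.5-fold in all 3 settings, and the immunoglobulin genes lie near 0 or above it without those members.

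Of the 9698 genes, 62 (0.639%) were at least 1.5-fold higher in Tet2 KO members and 33 (0.340%) at least 1.5-fold lower, and the median log2 ratio was 0.04. These counts depend on the offset, and with 1 CPM in place of 10 they were 619 and 278. The genes furthest above control were S100a8, Rpgrip1, Chil3, H2-Eb1, Retnlg, H2-Aa, Cd74, H2-Ab1, Wfdc17, S100a9, Fcnb and Lcn2. The genes furthest below were Iglc1, Jchain, Igkc, Iglc3, Igha, Gm47283, Ctse, Iglc2, Ighm, Prss34, Oser1 and Ly6k. No list of growth or division genes had a gene past 1.5-fold, with 0 of 44 S phase genes, 0 of 52 G2/M genes, 0 of 83 ribosomal proteins, 0 of 78 nuclear oxidative phosphorylation genes and 0 of 38 proteasome subunits.

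S100a8, which forms calprotectin with S100a9, stood at 141 CPM (131 to 153) in control and 852 (828 to 877) in Tet2 KO members, a log2 ratio of 2.59 (2.47 to 2.71). In the GMP sort it stood at 15.6 and 197 CPM, a log2 ratio of 3.66. S100a9 stood at 70.3 and 226 CPM in Lin-/CD11b+ members, a log2 ratio of 1.68 (1.51 to 1.87). The rule used both genes, through a limit that removed no cell, so the values are a description. A few cells carried most of it. The median member had 1 UMI of S100a8 in control and 2 in Tet2 KO, the 90th percentile was 4 and 20, and the highest member 69 and 620. In immunoglobulin-rich cells, which give the level of free RNA, the median was 1 in both libraries and the 90th percentile 4 and 3.

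**Figure D5:**
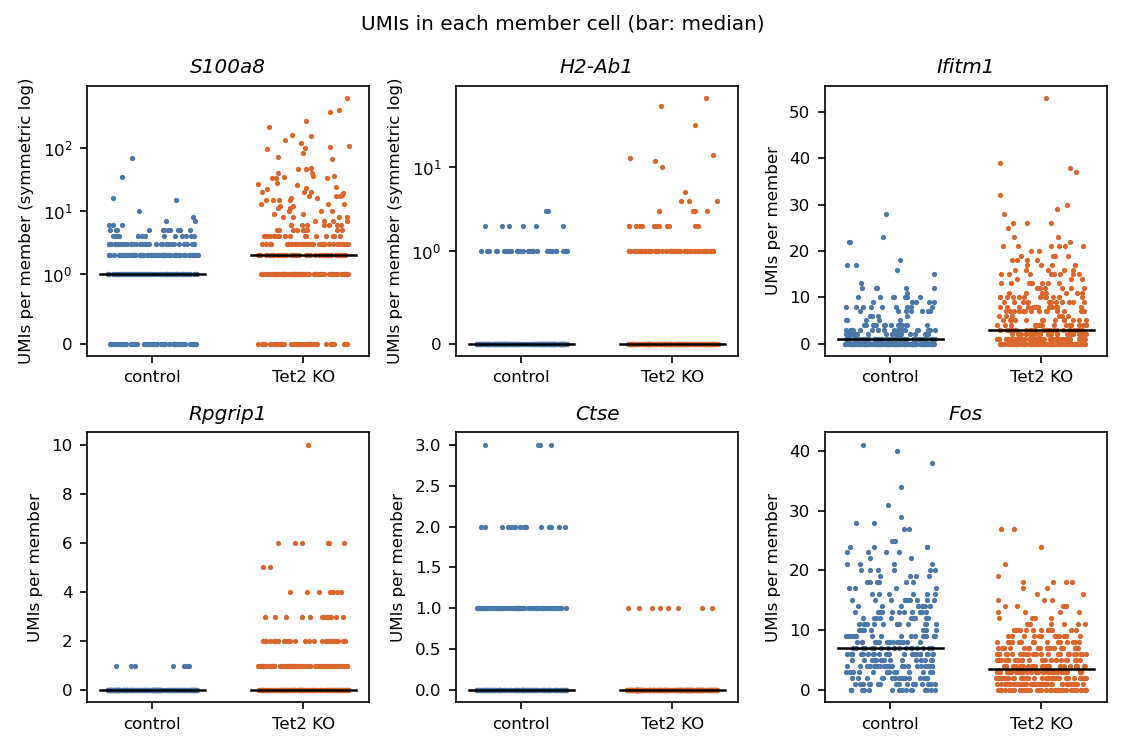
UMIs per member (points, 1 per member) of S100a8, H2-Ab1, Ifitm1, Rpgrip1, Ctse and Fos in the control and Tet2 KO Lin-/CD11b+ libraries, with a bar at the median and a symmetric log axis for S100a8 and H2-Ab1. Most members of both genotypes have few S100a8 UMIs and a tail of Tet2 KO members reaches 620.

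Members with at least 20 UMIs of S100a8 and S100a9 together numbered 2 of 301 in control (0.664%, 0.0806 to 2.38) and 38 of 350 in Tet2 KO (10.9%, 7.80 to 14.6). In the GMP sort there were 0 of 490 in control, which allows a share of up to 0.612% (3 counts of the total), and 40 of 887 in Tet2 KO (4.51%). In immunoglobulin-rich cells there were 3 of 165 and 7 of 179. The 38 Tet2 KO members held 81.4% of the S100a8 UMIs of their library's members. Summed, these members of the Lin-/CD11b+ sort were richer in several transcripts of both paths, with members rich in another lineage's transcripts left in. Whether single cells among them carried both was not tested. Lyz2 stood at 4741 CPM against 1429 in the other Tet2 KO members, S100a6 at 1299 against 486 and Ccr2 at 185 against 131. Of granule genes, Wfdc21 stood at 159 CPM against 13.1, Lcn2 at 201 against 40.1, Fcnb at 109 against 23.6 and Chil3 at 710 against 81.4. Mpo stood at 1483 CPM in them against 2531, and Irf8 at 425 against 435. Elane stood at 3250 CPM against 2783. Camp, a late neutrophil granule gene, stood at 51.4 CPM against 19.8.

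Without the 7 control and 14 Tet2 KO members rich in another lineage's transcripts, S100a8 stood at 143 and 654 CPM and S100a9 at 71.0 and 94.7, log2 ratios of 2.19 and 0.42. At or under the limit of 4 for the sum of Lgals3, S100a6 and S100a4, the log2 ratio of S100a8 was 1.34, and over it 2.97. For S100a9 these were -0.11 (-0.41 to 0.18) and 2.40 with all members kept, and in the GMP sort 1.96 and 1.90. S100a8 was thus higher in Tet2 KO members in both ranges. Retnlg, a late neutrophil gene, turned on the same few cells, with 97.0% of its Tet2 KO UMIs in 5 members, and without the 14 members it was lower than in control, at 2.32 CPM against 9.50.

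Among 46 monocyte effector genes 6 were past 1.5-fold above control and 2 below it, and the median log2 ratio of the list was 0.15. Lyz2 stood at 1059 CPM in control and 1809.9 in Tet2 KO members, S100a6 at 297 and 579, S100a4 at 123 and 259, Cybb at 53.3 and 91.4, Tgfbi at 39.4 and 69.6 and Clec4a2 at 45.2 and 106. Cybb encodes the membrane subunit of the phagocyte NADPH oxidase, and none of the other 5 subunits measured was past 1.5-fold. The 2 below were the chemokine Ccl9, at 243 and 151 CPM, and the protease inhibitor Slpi, at 710 and 421. Within each of 2 ranges of the order Lyz2 differed less, with log2 ratios of 0.20 at or under the limit of 4 and 0.22 over it, against 0.77 over all members. The upper range is wide, with sums of up to 26 in control and 39 in Tet2 KO members. In the GMP sort the log2 ratios of Lyz2 were 0.38 and -0.16 (-0.23 to -0.09). Ctsc, at 103 and 196 CPM, kept log2 ratios of 0.59 and 0.54 within the 2 ranges.

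The interferon-induced transmembrane genes were unequal. Ifitm1 stood at 166 CPM (154 to 178) in control and 396 (380 to 413) in Tet2 KO members, a log2 ratio of 1.26 (1.14 to 1.38). Ifitm3 stood at 546 and 921 CPM, a log2 ratio of 0.75 (0.68 to 0.82), and Ifitm2 at 787 and 831, a log2 ratio of 0.08. Ifitm1 and Ifitm3 were higher in the GMP sort too, with log2 ratios of 0.99 and 0.77. Ifitm1 was spread over many members, with a median of 1 UMI in control and 3 in Tet2 KO and a 90th percentile of 8 and 17. It is also a transcript of early progenitors, lower in the high than in the low tertile of both genotypes, at 1.07 and 0.360 UMIs of 5000 in control and 2.88 and 1.16 in Tet2 KO members. The log2 ratio was 1.40 at or under the limit of 4 and 1.65 over it. Members with a high sum, of which Tet2 KO had the larger share, thus carried less Ifitm1, while the level over all members was higher in Tet2 KO.

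Most other interferon-induced genes differed less. Of 23 genes of the type I response 1 was past 1.5-fold above control, Ifi27l2a at 44.4 and 103 CPM, and 0 were below. The median log2 ratio of these genes was 0.26 against 0.04 over all genes. None of 7 interferon-induced GTPases and none of 8 Ifi200 genes was past 1.5-fold. Of 23 genes of MHC class I and peptide loading 2 were above control, with H2-Q7 at 31.8 and 70.9 CPM and H2-Q6 at 11.5 and 25.3. These 2 are near-identical paralogues whose reads the counting could have split, so their separate values are uncertain.

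Transcripts of 4 MHC class II genes lay mostly in few Tet2 KO members, and smaller differences remained without members rich in another lineage's transcripts. Cd74, the invariant chain, stood at 24.4 CPM in control and 111 in Tet2 KO members, and H2-Ab1 at 11.3 and 60.4, and in all 4 of 9 class II genes were past 1.5-fold above control. Of the UMIs of Cd74, H2-Aa, H2-Ab1 and H2-Eb1 in Tet2 KO members 80.6% were in 10 members. Without members rich in another lineage's transcripts Cd74 stood at 4.75 and 16.1 CPM and H2-Ab1 at 11.1 and 22.3. Their log2 ratios were then 1.76 (1.05 to 2.52) and 1.01 (0.51 to 1.52). That of H2-Eb1 was 2.17 (0.60 to 4.17) and that of H2-Aa 0.74 (-0.12 to 1.64). H2-DMa, a peptide exchange chaperone of class II that is spread over members, stood at 175 and 173 CPM. The list of 15 dendritic cell markers, which summed to 278 and 529 CPM, holds Cd74, H2-Aa, H2-Ab1 and H2-Eb1 and is no separate result. Of its 10 genes measured 6 were past 1.5-fold above control, these 4 among them. The others were low, Klrd1 with 10 UMIs in control and 52 in Tet2 KO members and Siglech with 6 and 39.

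Some genes kept the direction of their difference in both sorts. Rpgrip1, which encodes a ciliary protein of photoreceptors, stood at 1.74 CPM (0.751 to 3.43) in control and 49.1 (43.4 to 55.4) in Tet2 KO members, a log2 ratio of 4.82 (3.82 to 6.05). In the GMP sort Rpgrip1 stood at 0.636 and 34.6 CPM, and within the 2 ranges of the order in the Lin-/CD11b+ sort its log2 ratios were 4.86 and 4.84. Ctse, an aspartic protease of the endosome, stood at 26.3 and 1.48 CPM, a log2 ratio of -4.16 (-5.40 to -3.13), and at 31.9 and 0.912 in the GMP sort. Gm47283, an annotated locus without an assigned function, stood at 31.5 and 2.95 CPM, and Ly6k at 13.5 and 0.923. Oser1 stood at 119 and 48.7 CPM, a log2 ratio of -1.28. In immunoglobulin-rich cells Rpgrip1 stood at 8.84 and 7.78 CPM and Ctse at 24.6 and 14.3, so those cells did not show differences of that size.

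Fos, an immediate early gene, stood at 608 CPM (586 to 631) in control and 318 (303 to 333) in Tet2 KO members, a log2 ratio of -0.94 (-1.02 to -0.85). The median member held 7 UMIs in control and 3.5 in Tet2 KO. In the GMP sort the log2 ratio was -1.20. Immunoglobulin-rich cells of the same libraries also had less Fos in Tet2 KO, at 933 and 451 CPM. Of 19 immediate early and AP-1 genes Fos alone was past 1.5-fold, and the list had a median log2 ratio of -0.19, with Jun at 392 and 308 CPM and Junb at 90.9 and 84.6. Fos was thus lower in another cell type of the Tet2 KO library as well.

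Lineage regulators and receptors differed little. None of 14 monocyte and dendritic fate regulators was past 1.5-fold, and their median log2 ratio was 0.13. Irf8 stood at 547 CPM (525 to 568) in control and 434 (417 to 452) in Tet2 KO members, a log2 ratio of -0.33 (-0.41 to -0.25), with -0.41 in the GMP sort. Its log2 ratio was -0.60 over the limit of 4 and -0.24 at or under it. Klf4 stood at 54.8 and 75.3 CPM, but its log2 ratio was 0.04 within both ranges of the order. Of 17 granulocytic and shared regulators only Cebpb was past 1.5-fold, at 13.3 and 28.4 CPM. Of 22 receptors only Csf2rb, the common beta chain for GM-CSF and IL-3, was, at 19.1 and 41.9 CPM (log2 ratio 1.13), and the GMP sort gave 24.6 and 29.1. Csf1r stood at 54.4 and 53.0 CPM.

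Primary granule transcripts had a median log2 ratio of -0.04 over 20 genes, with 2 past 1.5-fold above control, Lyz2 and Ctsc. Mpo, truncated by the rule, stood at 2853 and 2411 CPM and Elane at 3369 and 2836. Elane turned in the GMP sort, at 4716 and 5176 CPM, and the median of the list was 0.11. Ms4a3 went the other way, at 456 CPM (437 to 476) in control and 576 (556 to 597) in Tet2 KO members, with 648 and 981 in the GMP sort. Among 14 secondary and tertiary granule genes 5 were past 1.5-fold above control and 0 below, with a median log2 ratio of 0.34. Fcnb, a ficolin of maturing myeloid cells, stood at 6.31 and 33.4 CPM and Lcn2 at 18.9 and 58.5, and without members rich in another lineage's transcripts they stood at 6.56 and 33.9 and at 19.5 and 53.9. Chil3, a chitinase-like protein of monocytes and neutrophils, stood at 29.2 and 154 CPM, and its log2 ratio was 2.48 at or under the limit of 4 and 1.63 over it.

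The 3 genes Apoe, Saa3 and Wfdc17 were all past 1.5-fold above control, with Wfdc17 at 22.6 and 86.0 CPM, Apoe at 16.8 and 52.8 and Saa3 at 1.31 and 9.79. Of 6 Hoxa and partner genes measured 1 was below control, Hoxa7, at 18.7 and 7.94 CPM. Of 17 inflammatory cytokines and chemokines Saa3 was above control and Ccl3 and Ccl9 below, with Ccl3 at 30.5 and 11.4 CPM. Tet2 itself stood at 13.3 CPM (10.1 to 17.0) in control and 22.9 (19.0 to 27.3) in Tet2 KO members. These 3' tags do not count the deleted exon, so they check nothing about the deletion. None of 16 DNA methylation genes was past 1.5-fold, with Dnmt1 at 92.7 and 100 CPM and Tet3 at 12.8 and 19.2.

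Members of the GMP sort, chosen by the same rule, carried more Mpo and Elane and less Lgals3. Mpo stood at 4168 CPM in control and 3933 in Tet2 KO members of the GMP sort, against 2853 and 2411 in the Lin-/CD11b+ sort. Elane stood at 4716 and 5176 against 3369 and 2836, and Lgals3 at 183 and 216 against 309 and 433. The rule kept 39.0% of control and 32.6% of Tet2 KO cells of the GMP sort. The Igkc median was 0 UMIs per member there and 6 and 5 in the Lin-/CD11b+ sort. The 16 mature monocyte markers summed to 4254 and 4747 CPM in the GMP sort and 4269.7 and 4801 in the Lin-/CD11b+ sort, and Irf8 stood at 548 CPM in control members of the GMP sort, so this difference did not extend to all monocyte transcripts. In both sorts the share of cells that were members was lower in Tet2 KO.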

How the data were processed

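Per the labels and methods, bone marrow cells of the Lin-/CD11b+ and GMP sorts were sequenced in 4 droplet 3' libraries, 1 per genotype and sort. The authors counted UMIs with Cell Ranger 3.1.0 on mm10 per the submitters' processing notes, filtered cells with Seurat and deposited raw counts for 18695 genes in 8969 cells, with a table of each cell's library. The methods state a limit of 5% mitochondrial counts, yet 413 deposited cells lie at or over it. The methods name the v2 kit and the design text another.

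UMIs were summed over members per library and scaled to CPM, with Poisson intervals (exact) for CPM, shares with exact binomial intervals and ratios with exact conditional binomial intervals, all at 95%. Folds used CPM + 10 among genes with at least 20 UMIs over both libraries' members, which understates the ratios of low genes, and single log2 ratios used CPM. Named genes were the 12 highest and 12 lowest per comparison (for genotype, with at least 50 UMIs in 1 library), the 15 highest by CPM and by variance over mean, the genes of the rule, the markers and members of the gene lists. The members and lists were chosen with earlier results of these data known. The limits for cells rich in another lineage's transcripts, the sum of Lgals3, S100a6 and S100a4 and the comparison of sorts were chosen after the data were seen. Python 3.11.15, numpy 2.4.6, scipy 1.17.1, pandas 2.3.3 and matplotlib 3.10.9 were used, with seed 1 for thinning. The ratio computation was tested on simulated counts. Alternatives were other limits of the rule, thinned counts, other offsets and filters, mean over cells, and size factors from edgeR 4.0.16 and DESeq2 1.42.0 in R 4.3.3.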

Additional observations from a re-analysis of the deposited data

How the results depend on the processing

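No paired analysis was possible because each genotype and sort had 1 library. The share of members followed the limits of the rule. With an Mpo limit of 20 or 5 UMIs it was 12.1% or 19.2% in control and 7.72% or 14.6% in Tet2 KO, with a Ly86 limit of 1 or 3 UMIs 18.5% or 13.1% and 15.3% or 8.41%, with no Cebpe UMI 13.3% and 9.49%, and on thinned counts 5.25% and 2.57%. It was lower in Tet2 KO under each of these. With an offset of 1 CPM in place of 10, 619 genes were higher and 278 lower in Tet2 KO members. In the GMP sort 37 were higher. The other settings gave 53 to 77 higher and 26 to 42 lower. With that offset 868 genes were above and 386 below the granulocytic progenitors, and 1347 above and 1392 below the Fn1 monocytes. The share of Tet2 KO members past the limit of 4 was 43.1% without S100a4 and 43.7% with thinning to 2500 UMIs.

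Members rich in another lineage's transcripts decided the immunoglobulin values. Without the 5% of members with the most UMIs the log2 ratio of CPM + 10 of Tet2 KO over control turned positive for Iglc1 (1.36), Jchain (1.95), Igkc (1.96), Iglc3 (0.36), Igha (1.07) and Iglc2 (0.79), and the B and plasma cell list had a median of 0.52. Without the members rich in another lineage the list had a median of 0.079, Iglc1 1.19, Iglc2 0.36 and Retnlg -0.66. With an Mpo limit of 20, Iglc1 stood at 0.32. Of the list medians over all settings 314 stayed close, 56 moved and 2 turned. With 1 library a group, depth limits only the counting error, and the spread between mice is not measured.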
